A study of Arabidopsis thaliana with 50 samples.

Results

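Genes for nucleotide-binding leucine-rich repeat receptors (NLRs), the intracellular disease resistance proteins of plants, were followed in leaves of Arabidopsis thaliana accession Col-0. Members were the genes whose description in the authors' deposited table contains "disease resistance protein", "NBS-LRR" or "NB-ARC" in any case, which gave 129 of the 18231 genes listed there. The lines were the double mutant pp2a-b'γζ (b'γζ), the double mutant pp2a-b'γ sid2 (b'γ sid2), the line in which B'γ is put back as P35S:PP2A-B'γ into pp2a-b'γ (complemented), the single mutant pp2a-b'γ (b'γ) and wild type. All plants were 7 weeks old and grew in 8 h of light per day. B'γ and B'ζ are regulatory subunits of protein phosphatase 2A, sid2 is a lesion in ICS1, which makes the precursor of salicylic acid, and P35S is a constitutive viral promoter. Leaves were divided into apical and basal portions, and each of 10 groups of line and leaf portion held 5 libraries, each from a pool of 7 leaf portions. Per the labels, apical portions of b'γ were yellow with cell death and its basal portions looked free of symptoms. The deposited table holds no value per library, only the authors' log2 fold change of apical portions of each line against wild-type apical portions, so no SD can be given, and basal portions enter only through p-values over both portions.

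An NLR carries a central nucleotide-binding NB-ARC domain and C-terminal leucine-rich repeats. Its N-terminus is usually a Toll/interleukin-1 receptor (TIR) domain or a coiled coil (CC). Sensor NLRs detect pathogen effectors directly or through a host protein that they guard. TIR sensors signal through EDS1, which works with PAD4 and helper NLRs of the ADR1 kind or with SAG101 and helpers of the NRG1 kind, and the outcome can be salicylic acid accumulation and local cell death. Truncated forms, such as TIR-NBS proteins, lack the repeats.

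Of the 129 members, 84 were described as TIR proteins, 73 of them with repeats and 11 without, 12 as CC proteins and 12 by the NB-ARC domain alone, while 21 descriptions named no class. The description rule also took in 3 genes that are not described as receptors: RAR1 (AT5G51700), a co-chaperone partner, AT3G48080, a lipase-like protein, and AT3G20610, described as putative non-race specific. AT1G63850 is a TIR-NBS-LRR gene in the deposited description, which is used here, but a BTB/POZ domain-containing protein by its RefSeq product. The rule missed 9 receptors of the lists described below that the table does list. RefSeq product names containing the same words belong to 159 loci, of which 131 are listed and 121 are members. The other 28 are not analysed here, since every listed gene has a corrected genotype p under 0.05 and a gene that is not listed has no value.

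The upstream sequences of 5 members are shown because these genes stand for the patterns that follow: the 3 with the largest value in b'γ, then the 2 with the largest b'γζ value among members at least as high in b'γζ as in b'γ. Each is the 300 bases before the annotated gene start, 5′ to 3′ on the gene's own strand, from RefSeq's TAIR10.1 assembly. Capitals mark TTGAC or its reverse complement GTCAA, the core letters of the W-box that WRKY defence transcription factors bind; the 2 forms cannot overlap.
AT4G11170 (plus strand, chr4:6810803-6811102): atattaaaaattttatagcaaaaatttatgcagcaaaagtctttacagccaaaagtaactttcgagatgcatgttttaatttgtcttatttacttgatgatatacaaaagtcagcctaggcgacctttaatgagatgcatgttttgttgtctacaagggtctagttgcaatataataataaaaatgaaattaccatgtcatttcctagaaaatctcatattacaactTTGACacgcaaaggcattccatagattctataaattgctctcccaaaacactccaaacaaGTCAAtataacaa
AT5G18350 (minus strand, chr5:6078616-6078915): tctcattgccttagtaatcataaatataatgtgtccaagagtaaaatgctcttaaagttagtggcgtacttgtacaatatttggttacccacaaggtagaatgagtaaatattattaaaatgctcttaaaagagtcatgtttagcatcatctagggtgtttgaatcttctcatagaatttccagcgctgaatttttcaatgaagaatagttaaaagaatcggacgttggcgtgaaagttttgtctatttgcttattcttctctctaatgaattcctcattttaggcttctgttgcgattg
AT5G38350 (plus strand, chr5:15328269-15328568): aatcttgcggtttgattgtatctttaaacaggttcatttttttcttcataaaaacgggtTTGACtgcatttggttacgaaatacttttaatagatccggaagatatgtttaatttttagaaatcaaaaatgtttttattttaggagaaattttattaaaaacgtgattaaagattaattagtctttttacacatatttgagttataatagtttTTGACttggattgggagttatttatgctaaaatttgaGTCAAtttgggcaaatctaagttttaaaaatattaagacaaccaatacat
AT1G66090 (plus strand, chr1:24601733-24602032): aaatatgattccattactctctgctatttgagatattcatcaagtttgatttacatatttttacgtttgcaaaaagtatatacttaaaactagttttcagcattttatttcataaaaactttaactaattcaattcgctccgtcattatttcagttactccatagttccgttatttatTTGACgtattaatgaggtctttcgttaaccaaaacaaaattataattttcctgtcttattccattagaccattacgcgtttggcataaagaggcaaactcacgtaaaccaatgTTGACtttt
AT5G58120 (plus strand, chr5:23516956-23517255): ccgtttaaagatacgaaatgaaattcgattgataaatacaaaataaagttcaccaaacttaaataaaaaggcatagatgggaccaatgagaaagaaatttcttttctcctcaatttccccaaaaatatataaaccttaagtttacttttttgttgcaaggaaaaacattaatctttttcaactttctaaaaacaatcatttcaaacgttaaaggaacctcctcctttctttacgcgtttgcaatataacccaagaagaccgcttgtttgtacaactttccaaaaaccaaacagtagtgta
AT5G38350 holds 3 matches, AT4G11170 and AT1G66090 hold 2 each, and the windows of AT5G18350 and AT5G58120 hold none. Over whole sets, the letters occurred in 28 of 50 windows (56.0%) of members at least 2-fold higher in b'γ and in 46 of 79 windows (58.2%) of the other members. They occurred in 50.4% of the windows of all 27443 nuclear protein-coding genes and in 62.2% of those of all listed protein-coding genes at least 2-fold higher in b'γ. With a window from 250 bases before to 50 after the start, the shares were 70.0% of the members higher in b'γ, 67.1% of the other members and 50.5% of all genes.

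The deposited values are read in 2 ways. "Higher" and "lower" mean at least 2-fold, that is, 1 or more on the log2 scale in either direction. "Rose" and "fell" mark genes which in addition passed a largest-error test: the residual SD of each gene was set to the largest that the authors' genotype and interaction p-values allow, the difference was divided by the resulting error, and p was adjusted by Benjamini-Hochberg over the 25801 genes that the authors' corrected p-values show they tested. That test is strict only where its assumptions, given with the processing, hold. A gene that misses it is not shown to be unchanged. The p-values measure the spread between pools. In whole leaf tissue, fewer cells of a type and less RNA per cell cannot be told apart.

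The libraries' labels were first checked on the mutated genes. In the authors' deposited table, B'γ (AT4G15415) stood at -0.46 in b'γζ, -0.72 in b'γ sid2, 0.35 in the complemented line and -0.69 in b'γ. B'ζ (AT3G21650) fell by 2.59 on the log2 scale in b'γζ by the largest-error test. ICS1 (AT1G74710) had -0.97 in b'γ sid2, and in b'γ it rose by 3.18 by the largest-error test. B'γ was thus less than 2-fold from wild type in every line, the single mutant and the complemented line included. Between those 2 lines it differed more: it rose by 1.04 in the complemented line relative to b'γ by the largest-error test. The leaf markers moved too: of 6 mesophyll genes, 4 were lower in b'γ (median -1.32), 1 in b'γζ (median 0.08), 1 in b'γ sid2 (median 0.45) and 2 in the complemented line (median 0.08), while 1, a Rubisco small subunit gene (AT5G38420), was higher in b'γ sid2, in the authors' deposited values. None of the 6 passed the largest-error test in a line. None of 3 phloem and 4 guard cell markers was past 2-fold in a line, with values between -0.67 and 0.65. The part of these shifts in the results below was not tested.

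In apical portions of b'γ, many more NLR genes were higher than lower. Of the 129 members, 50 were higher and 4 lower in the authors' deposited table, against backgrounds of 17.0% higher and 16.2% lower among all listed genes. The median member stood at 0.68 and the median listed gene at 0.02 on the log2 scale. By the largest-error test, 26 members rose (background 7.92%) and 0 fell (background 6.40%); at an unadjusted p under 0.05 that test gave 1 lower member, and with the equal-parts variance, a less strict error, 4. The spread was wide, from -2.78 to 7.86. Near the limit, 3 members lay between 0.9 and 1 and 3 between 1 and 1.1.

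**Figure D1:**
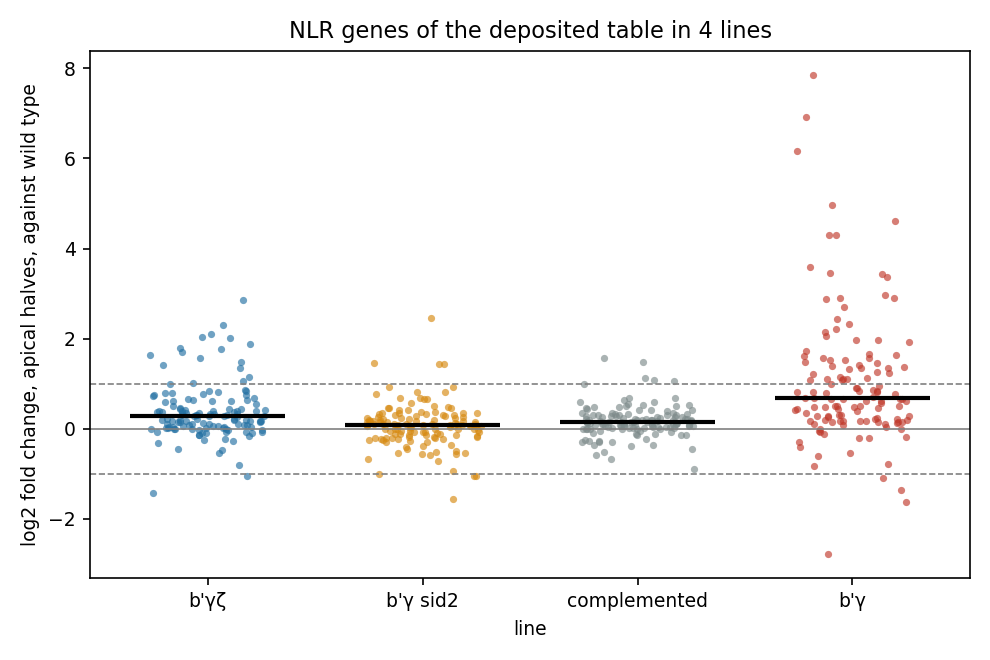
Authors' deposited log2 fold changes of the 129 members in apical portions, one point per gene, for b'γζ, b'γ sid2, the complemented line and b'γ, each against wild type (0). Black bars are medians (0.29, 0.07, 0.15 and 0.68) and dashed lines mark 2-fold; the b'γ points reach 7.86, the others reach at most 2.86.

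The largest value was that of AT4G11170, known as RMG1 for Resistance Methylated Gene 1, a TIR-type NLR whose expression is known to depend on DNA methylation of its promoter. Its deposited log2 fold change was 7.86 in b'γ, 232-fold on the linear scale, and it rose by the largest-error test. In the same deposited table it stood at 1.69 in b'γζ, -0.67 in b'γ sid2 and 0.60 with complementation. The upstream window of this gene, on chromosome 4 (gene at 6811103 to 6817339), was shown above with its 2 matches.

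AT5G18350 (chromosome 5, 6074069 to 6078615), a TIR-NBS-LRR gene, rose by 6.91 in b'γ, 120-fold, in the deposited values, by the largest-error test. It was also higher in b'γζ (2.01), b'γ sid2 (2.46) and with complementation (1.56) in the authors' table. AT5G38350, a TIR-NBS-LRR gene (chromosome 5, 15328569 to 15331528), rose by 6.17 in b'γ by the largest-error test, while its deposited values were 0.20 in b'γζ, 0.49 in b'γ sid2 and 0.17 with complementation. Of these 3 genes, AT5G18350 was the one at least 2-fold higher in all 4 lines.

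The next 5 by size also rose in b'γ by the largest-error test. AT5G66890, which RefSeq describes only as a leucine-rich repeat protein, had a deposited value of 4.97. The TIR-NBS-LRR genes AT3G04220 (4.61), AT4G14370 (4.30) and AT3G25510 (3.58) and the TIR-NBS gene AT1G17615 (4.29) followed in the deposited table. In the authors' values for b'γ sid2, these 5 genes lay between -0.18 and 0.93.

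**Figure D2:**
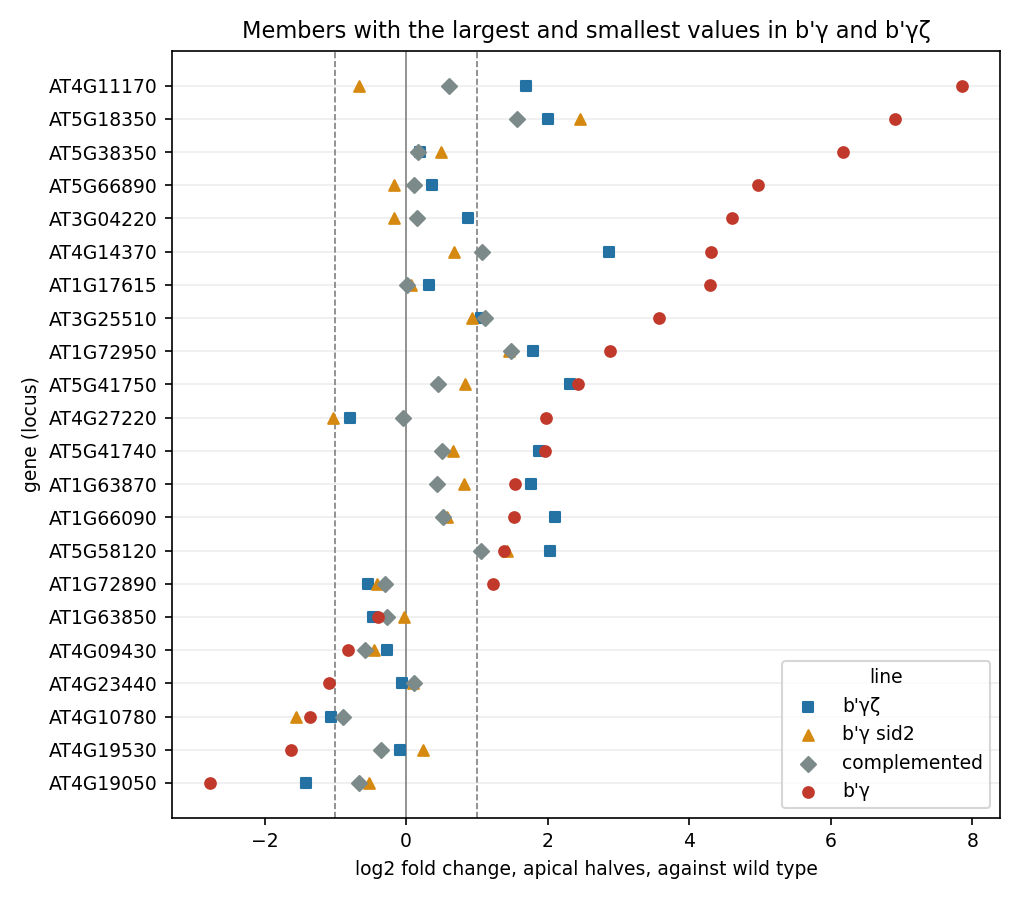
Authors' deposited log2 fold changes against wild type in apical portions for the members with the largest and smallest values in b'γ or b'γζ, 1 row per gene, with a marker per line (b'γζ squares, b'γ sid2 triangles, complemented diamonds, b'γ circles). Dashed lines mark 2-fold; AT4G11170, AT5G18350 and AT5G38350 are far to the right in b'γ, and AT4G19050 (-2.78) is farthest to the left.

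The lower end held 4 members in b'γ, and 0 of them fell by the largest-error test. AT4G19050, an NB-ARC gene, had the smallest deposited value, -2.78, which did not pass the largest-error test, with -1.42 in b'γζ, -0.53 in b'γ sid2 and -0.67 with complementation. AT4G10780 was below wild type in every line, at -1.06 in b'γζ, -1.55 in b'γ sid2, -0.89 in the complemented line and -1.35 in b'γ in the deposited table. The TIR-NBS-LRR gene AT4G19530 stood at -1.62 in b'γ and between -0.36 and 0.23 in the others. AT4G23440, a TIR-NBS gene, stood at -1.08 in b'γ and AT4G09430, the fifth from the bottom, at -0.83, in the authors' values.

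By class, the deposited table gave higher values in b'γ for 38 of 84 TIR members (45.2%, median 0.84), 1 of 12 CC members (8.33%, median 0.26), 3 of 12 NB-ARC members (25.0%, median 0.35) and 8 of 21 with no class in the description (38.1%, median 0.50). Lower were 2, 0, 1 and 1 of these in the same order. Those that rose by the largest-error test numbered 18, 0, 1 and 7. Among all listed genes, 17.0% were higher in b'γ, 16.2% were lower and 7.92% rose by that test. TIR members without repeats included 6 higher of 11 (median 1.09), and those with repeats 32 of 73 (median 0.81). In b'γζ the authors' values were higher for 17 of the 84 TIR members (20.2%), against 0 of 12 CC, 0 of 12 NB-ARC and 1 of the 21 others. The background there was 4.69% of all listed genes. No test of the differences between classes was run.

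**Figure D3:**
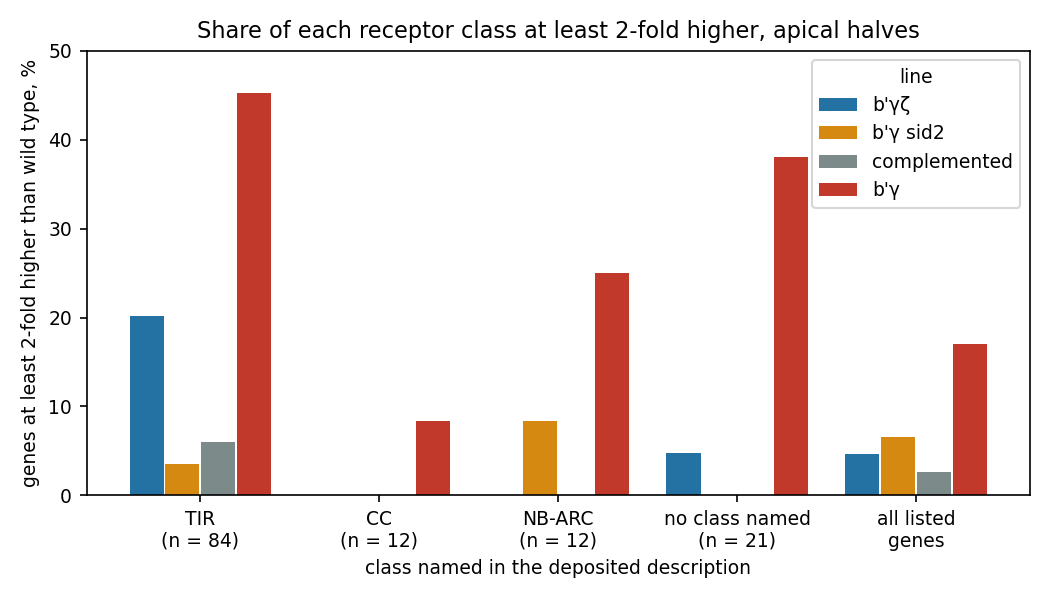
Percent of members at least 2-fold higher than wild type in apical portions, by the class that the deposited description names, with 4 bars per class (b'γζ, b'γ sid2, complemented, b'γ), and the same for all listed genes at the right. The TIR bars reach 45.2% in b'γ and 20.2% in b'γζ; all listed genes reach 17.0% and 4.69%.

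Helper receptors transmit the signal of many sensors. For this and the later lists, the backgrounds in b'γ are 17.0% of all listed genes higher and 7.92% that rose by the largest-error test. No list was tested against these shares. Among the 6 listed genes of the helper list, 4 rose in b'γ by the largest-error test. The highest was AT5G66890, put in the list for its NRG1 kinship and described above with 4.97 in the deposited table. Its RefSeq description as a leucine-rich repeat protein does not show that it acts as a helper. ADR1 (AT1G33560) rose by 2.32 in b'γ by the largest-error test, with deposited values of 0.27 in b'γζ, 0.08 in b'γ sid2 and 0.30 with complementation. ADR1-L1 (AT4G33300) rose by 1.35 in b'γ by the largest-error test, and its deposited values lay between -0.30 and 0.05 in the other lines. ADR1-L2 (AT5G04720), a helper that the description rule misses, stood at 1.60 in b'γζ, 1.07 in b'γ sid2, 0.01 in the complemented line and 2.24 in b'γ in the authors' table. ADR1-L2 counts among the 4 that rose, and it lies in the stretch of chromosome 5 from AT5G03406 to AT5G05250. Whether its values follow from that position was not tested. AT5G66900 and AT5G66910, CC members and NRG1 helpers beside AT5G66890 on chromosome 5, were 0.22 and 0.91 in b'γ in the authors' table.

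Most CC sensors were below 2-fold in b'γ, as were most listed genes. Of 10 listed, 1 rose: AT1G50180, an NB-ARC member, by 2.06, with deposited values of 0.61 in b'γζ, 1.45 in b'γ sid2 and 0.47 with complementation. RPM1 and RPS2, sensors of bacterial effectors which guard RIN4, were below 2-fold in b'γ in the authors' values, at 0.29 and 0.84. SUMM2 (AT1G12280), which senses loss of the MEKK1-MPK4 cascade, stood at -0.55 in b'γ, with 0.17 to 0.34 in the other lines of the deposited table. The downy mildew receptors RPP8 and RPP13 stood at 0.21 and -0.21 and LOV1, which confers sensitivity to the fungal toxin victorin, at 0.61 in b'γ in the authors' table. ZAR1, which works with receptor-like pseudokinases and is missed by the rule, stood at 0.56, and AT1G58602 at 0.81.

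Among 16 listed TIR sensors, 5 were higher in b'γ and 1 rose. The one that rose was VICTR (AT5G46520), named for its part in root growth arrest by a small molecule, at 1.61 in the deposited table. RPP1 (AT3G44480), a downy mildew receptor, stood at 1.35, RLM1 (AT1G64070), which confers resistance to the blackleg fungus, at 1.25, AT1G31540 at 1.23 and AT5G18370 at 1.11 in b'γ in the authors' table. Below 2-fold in b'γ were RPS6 (0.83), RPP4 (0.85), RPP5 (0.46), LAZ5 (0.50), VICTL (0.62), AT4G12010 (0.65), AT4G19510 (0.20) and AT5G11250 (0.13) in the deposited values, with SNC1 (0.55), WRR4 (0.50) and AT4G19500 (-0.11) among those outside the rule. WRR4 rose by 1.69 in b'γζ by the largest-error test.

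Several NLRs work as pairs encoded side by side. Of the 9 listed paired receptors, 4 rose in b'γ by the largest-error test. The neighbours CHS1 (AT1G17610), a TIR protein known from chilling-sensitive mutants, and AT1G17600 rose by 1.09 and 1.93 in the deposited table by the largest-error test. Their annotated models overlap on opposite strands, and whether the authors' counting used strand is not given in the sources used here, so their reads may not be told apart. AT1G17615, next to them, was the third that rose. CHS3 (AT5G17890), missed by the rule, rose by 1.18, while its partner CSA1 stood at 0.50 in b'γ in the authors' values. RPS4 and RRS1, a pair that senses bacterial effectors, stood at 0.16 and 0.55, and AT5G45060 and AT5G45050 at 0.66 and 0.83. AT3G04210, the member of the truncated TIR list, stood at 0.18 in b'γ and -0.55 in b'γ sid2 in the authors' table.

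The genes that act with the receptors followed by list. The signalling node had 5 of 5 genes higher in b'γ and 4 that rose in the deposited table. EDS1 was at 1.91, PAD4 at 1.86 and NDR1, which CC sensors use, at 1.01; AT3G48080, the member with a lipase-like annotation, rose by 2.70; SAG101 (1.26) was higher without passing the largest-error test. In b'γζ, EDS1 was at 1.02 and PAD4 at 0.21 in the authors' values. The RPW8 homologs HR1 to HR4, relatives of a broad mildew resistance protein, were all higher in b'γ in the deposited table, at 1.63, 2.71, 1.81 and 2.19. HR3 and HR4 passed the largest-error test. HR4 was also higher in b'γζ (1.58), b'γ sid2 (1.41) and with complementation (1.39).

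**Figure D4:**
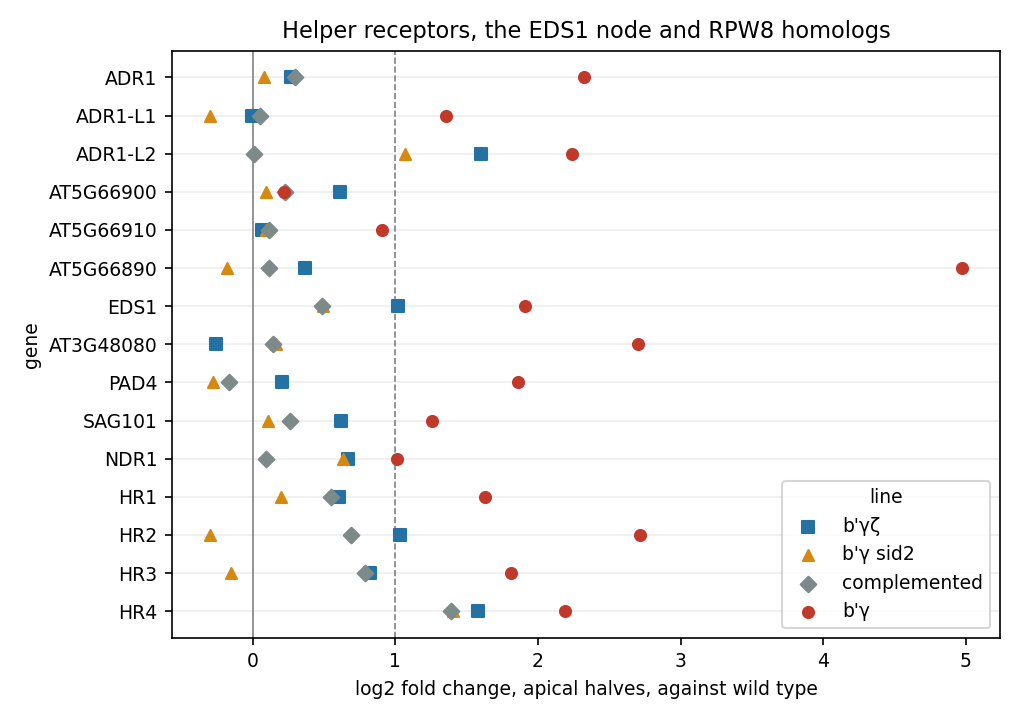
Authors' deposited log2 fold changes against wild type in apical portions for the helper receptors, the EDS1 signalling node and the RPW8 homologs, 1 row per gene and a marker per line as in the legend; the dashed line marks 2-fold. The b'γ circle is the rightmost marker for most genes, with ADR1 at 2.32 and EDS1 at 1.91.

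The other lists had few genes past 2-fold in b'γ, where 17.0% of all listed genes were higher and 16.2% lower. Of 7 co-chaperones, which help NLRs fold, 0 were past 2-fold in b'γ, whereas HSP90.1 rose by 1.5 in b'γζ, by 1.62 in b'γ sid2 and, at 1.57, in the complemented line, and HSP90.2 rose by 1.01 in the complemented line, in the deposited table. Of 10 guarded proteins, 1 was higher in b'γ, PBL2 (AT1G14370, 1.57). Of 10 genes that restrain NLRs or degrade their transcripts, 2 were higher in b'γ in the authors' table, BON1 (1.90) and BAP1 (1.82), which restrain cell death; BON1 was also higher in b'γζ (1.41). Of 6 listed genes for the expression and activity of NLRs, 0 were past 2-fold in any line in the authors' table. Among 6 reference genes the median was 0.23 in b'γ and between -0.04 and 0.05 in the other lines, and none was past 2-fold.

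In b'γζ, 18 of the 129 members were higher and 2 were lower in the authors' deposited table, against backgrounds of 4.69% and 2.92% of listed genes. By the largest-error test 7 rose (background 1.17%) and 0 fell (background 0.647%); that test at an unadjusted p under 0.05 and the equal-parts variance each gave 0 that were lower. The median member stood at 0.29. The largest deposited value was that of AT4G14370, 2.86, followed by AT5G41750 (2.31), AT1G66090 (2.10), AT5G58120 (2.03), AT5G18350 (2.01), AT5G41740 (1.88), AT1G72950 (1.80) and AT1G63870 (1.77), all TIR members. Of these, AT5G58120 rose by the largest-error test. At the low end stood AT4G19050 (-1.42), AT4G10780 (-1.06), AT4G27220 (-0.80), AT1G72890 (-0.54) and AT1G63850 (-0.47) in the deposited values. The other members that rose were AT5G22690 (1.63), AT1G56540 (1.48), AT1G63750 (1.41), AT1G63860 (1.36), VICTL (AT5G46510, 1.03) and, at the limit, AT5G18360, also TIR members.

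Relative to b'γ, 87 of 129 members were lower in b'γζ at any size. The median difference was -0.333 for members and -0.007 for all listed genes. Differences of the deposited values placed 35 members at least 2-fold lower and 4 higher in b'γζ (backgrounds 14.5% and 13.8%). By the largest-error test 17 fell and 1 rose (backgrounds 6.20% and 4.49%). AT4G11170 (-6.16), AT5G38350 (-5.98) and AT5G18350 (-4.90) fell, and AT5G66890 (-4.61) missed it. The helpers ADR1 and ADR1-L1 fell by 2.06 and 1.36 by the same test. AT5G22690 went the other way: its deposited values were 1.63 in b'γζ and 0.16 in b'γ, a difference of 1.47 that passed the test. AT4G19530 (1.54), AT4G19050 (1.36) and AT4G23440 (1.02) were the others at least 2-fold higher in b'γζ than in b'γ, and all 3 were lower in b'γ than in wild type in the authors' values.

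In b'γ sid2, few members were past 2-fold. The authors' deposited table gave 4 higher and 4 lower members (backgrounds 6.55% and 5.56%), and 1 that rose and 1 that fell by the largest-error test (backgrounds 2.51% and 2.54%). The median member stood at 0.07. The 4 higher ones were AT5G18350 (2.46), AT1G50180 (1.45), AT1G72950 (1.45) and AT5G58120 (1.43), of which AT5G58120 rose by the largest-error test, and AT3G25510 and AT1G17600 (0.93 each), AT5G41750 (0.83) and AT1G63870 (0.82) followed. RPP4 (AT4G16860), a downy mildew receptor, fell by 1.01 in b'γ sid2 by the largest-error test, though in b'γ the deposited value was 0.85. The other lower members were AT4G10780 (-1.55), AT5G45240 (-1.04) and AT4G27220 (-1.04), followed by AT1G72870 at -0.94.

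Against b'γ, the members' values were lower in b'γ sid2 for 106 of 129. The median difference was -0.655 for members and -0.03 for all listed genes. Differences of the deposited values put 44 members at least 2-fold lower and 3 higher (backgrounds 15.8% and 16.1%). By the largest-error test 26 fell and 0 rose (backgrounds 7.49% and 6.71%); 0 were higher at an unadjusted p under 0.05 by that test and 3 with the equal-parts variance. AT4G11170 had the largest difference, -8.52, and fell by the largest-error test, and AT5G38350 (-5.68), AT5G66890 (-5.15) and AT3G04220 (-4.79) followed and fell too. AT4G27220, an NB-ARC gene, had deposited values of -1.04 in b'γ sid2 and 1.98 in b'γ. Higher than in b'γ were AT4G19050 (2.24), AT4G19530 (1.86) and AT4G23440 (1.18), and SUMM2 followed with 0.89.

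In the complemented line, 5 members were higher and 0 lower in the authors' deposited table (backgrounds 2.63% and 2.22%). By the largest-error test 0 rose and 0 fell (backgrounds 0.285% and 0.433%); that test at an unadjusted p under 0.05 gave 2 higher and 0 lower, as did the equal-parts variance. The median member stood at 0.15. The 5 were AT5G18350 (1.56), AT1G72950 (1.48), AT3G25510 (1.12), AT4G14370 (1.08) and AT5G58120 (1.06), and AT5G41550 stood just below the limit, with AT2G17050 and AT1G17600 at 0.69 each. The lowest were AT4G10780 (-0.89), AT4G19050 (-0.67), AT4G09430 (-0.58), AT4G09420 (-0.52) and AT3G04210 (-0.46) in the deposited values.

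Compared with b'γ, differences of the deposited values placed 43 members at least 2-fold lower and 3 higher in the complemented line (backgrounds 15.1% and 12.9%). At any size, 105 of 129 were lower, with a median difference of -0.562 for members and -0.022 for all listed genes. By the largest-error test 20 fell and 0 rose (backgrounds 6.67% and 4.36%); 0 were higher at an unadjusted p under 0.05 by that test and 3 with the equal-parts variance. AT4G11170 (-7.26), AT5G38350 (-6.00), AT5G18350 (-5.35) and AT5G66890 (-4.86) had the largest differences and all fell. The comparisons of b'γζ, b'γ sid2 and the complemented line with b'γ use the same b'γ pools as b'γ against wild type. A high value in those pools enters every one of them, so they are not independent. Higher than in b'γ were AT4G19050 (2.11), AT4G19530 (1.26) and AT4G23440 (1.19), none of which passed the test, with SUMM2 at 0.80.

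Of the 129 members, only AT5G18350, AT1G72950 and AT5G58120 were at least 2-fold higher in all 4 lines in the deposited table. AT1G72950, a TIR-NBS gene, stood at 1.80 in b'γζ, 1.45 in b'γ sid2, 1.48 in the complemented line and 2.87 in b'γ. AT5G58120, a TIR-NBS-LRR gene, stood at 2.03 in b'γζ, 1.43 in b'γ sid2, 1.06 in the complemented line and 1.39 in b'γ. All 4 values of a gene are against the same wild-type pools, so a difference in those pools would enter every one of them.

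Along the chromosomes, the members lay in runs. With at most 8 annotated genes between neighbours, 12 clusters of 3 or more held 45 of the 129 members, and 18 pairs and 48 single genes made up the rest. Within clusters the deposited values differed. In the cluster from AT5G18350 to AT5G18370 (chromosome 5, 6074069 to 6089041), the b'γ values were 6.91, 0.44 and 1.11 along the chromosome. The cluster of AT5G66890, AT5G66900 and AT5G66910 held 4.97, 0.22 and 0.91 in b'γ in the authors' table. The 6 TIR members around RPP4 and RPP5 (chromosome 4, 9488466 to 9551028) kept closer together: their deposited values ranged from -0.13 to 0.81 in b'γζ, from -1.01 to -0.05 in b'γ sid2, from -0.28 to 0.35 in the complemented line and from 0.15 to 1.14 in b'γ. SNC1, which lies in the same run but is missed by the rule, stood at -0.26 in b'γ sid2 and 0.55 in b'γ. The cluster from AT1G63850 to AT1G63880 had its highest deposited median, 0.95, in b'γζ, against 0.44 in b'γ.

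**Figure D5:**
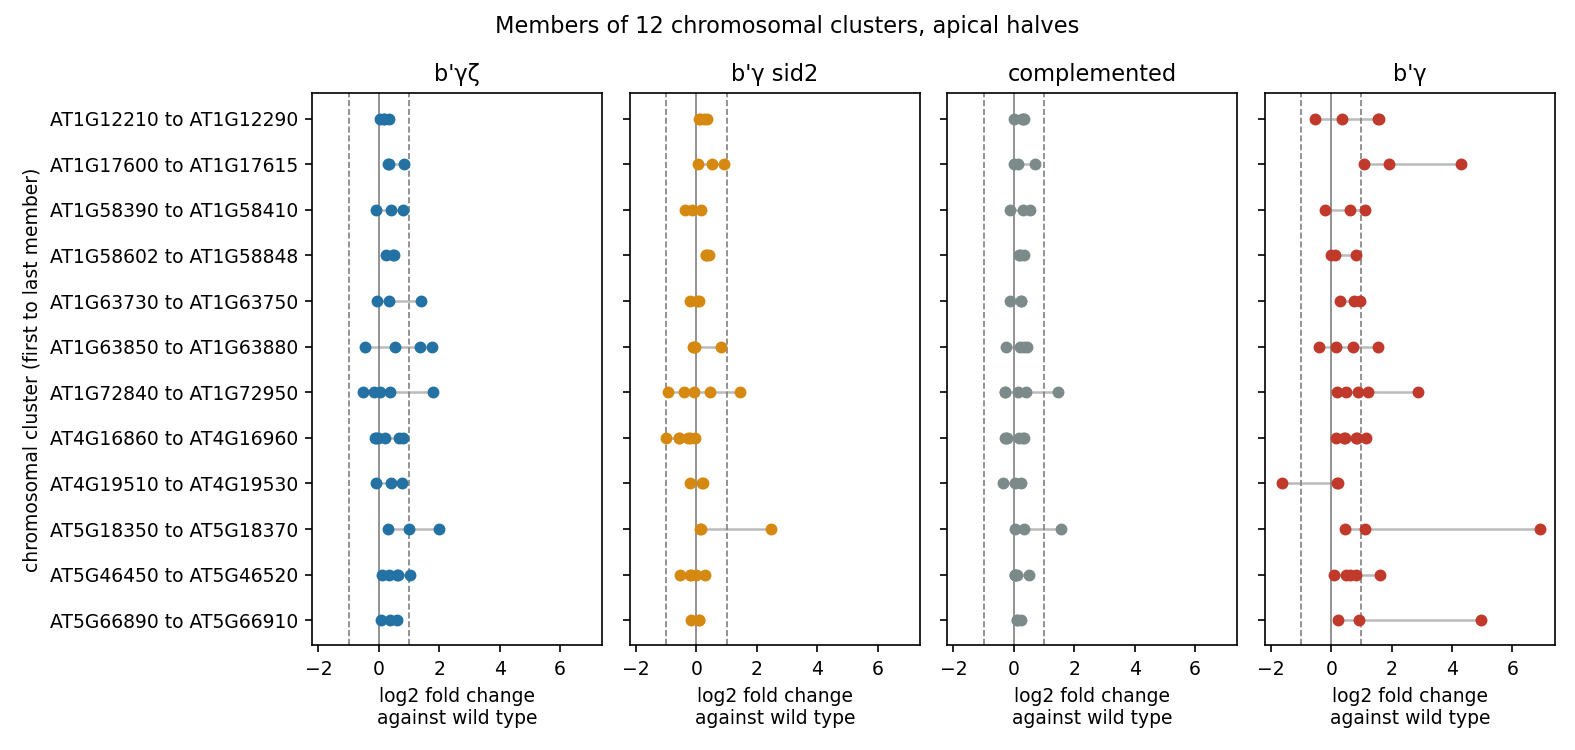
Authors' deposited log2 fold changes against wild type in apical portions for the members of each of 12 chromosomal clusters, 1 row per cluster (first to last member), a panel per line (b'γζ, b'γ sid2, complemented, b'γ); points are genes and grey lines join the lowest and highest. Dashed lines mark 2-fold; the widest rows are in the b'γ panel, where AT5G18350 reaches 6.91.

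Of the 32 pairs of members that are next to each other among protein-coding genes, 23 were on the same strand, 7 were divergent and 2 convergent. Divergent partners did not always move alike in the authors' table: AT5G48770 stood at 0.58 and AT5G48780 at 2.22 in b'γ, and AT4G19520 at 0.23 while AT4G19530 stood at -1.62. Where annotated models overlap, reads may not be told apart, and 43 members overlap another annotated gene. The models of AT1G12280 and AT1G12290 overlap on the same strand, and those of AT1G72860 and AT1G72870 and of AT4G36140 and AT4G36150 overlap on opposite strands. Their values are uncertain for that reason.

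There were 4 members that shared 1 lowest value between lines, wild type counted as 0, in the deposited table. AT4G11340 stood at 0 in b'γζ and in the complemented line, at 0.17 in b'γ sid2 and at 3.43 in b'γ. AT4G08450 stood at -0.01 in b'γζ, b'γ sid2 and the complemented line and at 2.91 in b'γ, AT5G41540 stood at 0.69 in b'γ, and AT3G51560 stood at 0.36 in b'γζ. A fold of these 4 against a line at that lowest value depends on the lowest value, though the counts and plots include it. Each comparison was also counted without those of the 4 that had a compared line, wild type included, at that lowest value. Then 49 instead of 50 members were higher in b'γ than in wild type. Relative to b'γ, 33 instead of 35 were lower in b'γζ, 43 instead of 44 in b'γ sid2 and 41 instead of 43 in the complemented line. The other counts of higher or lower members were the same.

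The leaf portions were compared only through p-values. In the authors' deposited table, 46 of 129 members (35.7%) had a corrected genotype-by-portion interaction p under 0.05, against 42.4% of listed genes, and 73 (56.6%) a corrected leaf-portion p under 0.05, against 54.1%. Of the 50 members higher in b'γ, 27 (54.0%) had such an interaction p and 33 such a portion p. Of the other 79 members, 19 and 40 did. Of all 6048 listed genes at least 2-fold from wild type in b'γ, in either direction, 3782 (62.5%) and 3919 did. The direction in basal portions is not among the values used.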

How the data were processed

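The data were 1 table of the authors' own comparisons, from 50 poly(A) RNA libraries (TruSeq Stranded mRNA, per the labels' protocols). The deposited values are the authors' log2 ratios of 4 lines to wild type in apical portions, and p-values for genotype, leaf portion and their interaction, uncorrected and corrected. Per the submitters' processing notes, bcl2fastq and DESeq were used and the build was TAIR10; versions are not given in the sources used here. Levels and depth are unknown, and 0 columns of per-sample values were present.

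For the lines set against b'γ, one deposited value was subtracted from the other. In the largest-error test, F values (4 and 40 degrees of freedom) were derived from the genotype and interaction p-values; it took the largest residual SD they allow with line means within 20 log2 units, and compared each difference with t on 40 degrees of freedom; its calls were tested on simulated data. The test assumes that these p-values come from an analysis of variance of log2 values by line and leaf portion, as in the simulated data. It also assumes, as they do, the same residual SD of a gene in every group and independent apical and basal pools. Whether the apical pools of b'γ varied more than other pools cannot be seen without values per library. Where an assumption fails, the error used need not be the largest possible. With values per library not used here, no exact test of a difference could be made, so p from this test is not printed. Names and coordinates came from RefSeq's TAIR10.1. Python 3 with numpy, pandas and scipy was used. Named genes were the 8 largest and 5 smallest members against wild type per line, the 4 largest and 4 smallest differences from b'γ, and all list receptors that are members, 1 of which is not reported here. Members, lists and tests were chosen with earlier results of these data known. Alternatives were limits of 1.5-fold and 4-fold, a corrected p under 0.01, other centring and membership, an equal-parts variance and a limit of 15 log2 units.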

Additional observations from a re-analysis of the deposited data

Results flagged for a closer look

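The effect of the lines differed between apical and basal portions for 29 of the 54 members at least 2-fold from wild type in b'γ (53.7%), by the authors' deposited corrected interaction p under 0.05. The same held for 62.5% of all listed genes at least 2-fold from wild type in b'γ, for 35.7% of the 129 members and for 42.4% of all listed genes. The 5 smallest were those of AT4G11340 (8.92e-13), AT4G08450 (1.20e-10), AT4G19530 (1.28e-09), ADR1, AT1G33560 (8.06e-08), and AT5G38340 (2.84e-07), in the deposited table. The interaction p is over all lines and both portions, so it does not say which line or portion differs. AT4G11340 and AT4G08450 are at the same lowest value in several lines.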

How the results depend on the processing

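No paired analysis was possible because the deposited table holds no value per library; for the same reason no library could be left out, and neither was run. Counts of members that were higher or lower depend most on the size limit. At 1.5-fold, 36 were higher in b'γζ, 13 in b'γ sid2, 11 in the complemented line, and 8 were lower in b'γ sid2, 2 in the complemented line and 7 in b'γ; against b'γ, 11 were above it in b'γζ, 5 in b'γ sid2, 6 in the complemented line, and 70 were lower in b'γ sid2. At 4-fold, 5 were higher in b'γζ, 1 in b'γ sid2, 0 in the complemented line and 21 in b'γ, and 0 were lower in b'γζ, 0 in b'γ sid2 and 1 in b'γ; against b'γ, 0 were higher in b'γζ, 1 in b'γ sid2, 1 in the complemented line, and 17, 20 and 18 were lower in the same order. Centred on the reference genes, 7 instead of 4 were higher in b'γζ than in b'γ. In b'γ against wild type, 41 instead of 50 were then higher and 6 instead of 4 lower. Against b'γ, 28 instead of 35 were lower in b'γζ, 40 instead of 44 in b'γ sid2 and 32 instead of 43 in the complemented line. With members limited to a named class or NB-ARC, 1 instead of 2 was lower in b'γζ. With the equal-parts variance the test gave, against wild type, 15 that rose in b'γζ, 3 in b'γ sid2, 2 in the complemented line and 49 in b'γ, and 2 that fell in b'γ sid2 and 4 in b'γ; against b'γ, 3 rose in each of the other lines and 33 fell in b'γζ, 42 in b'γ sid2, 41 in the complemented line. A corrected p under 0.01, centring on all listed genes, leaving out members at the lowest value or the 3 not described as receptors (chosen after seeing the data), adding the receptors the rule misses and a limit of 15 log2 units left each count within 1.5 times. The cause was not tested. Leaving out the stretch of chromosome 5 from AT5G03406 to AT5G05250 could not change these counts, since it holds 0 members. The helper ADR1-L2, which the rule misses, lies in that stretch.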
